A study of Rattus norvegicus with 6 samples.

Results

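The lower part of glycolysis and the lactate dehydrogenases were described from 10 listed genes: Aldoa, Aldoc, Gapdh, Pgk1, Pgam2, Eno1, Eno3, Pkm, Ldha and Ldhb. The genes were chosen by name from a table of 28293 genes. Of the 10 genes, 9 were found, each in 1 row, and Pgk1 was not analysed here. RNA had been sequenced from myocardial tissue of wild-type (WT) male rats, with 3 samples from sham rats and 3 from rats with myocardial ischemia/reperfusion injury (MI/RI, labelled I/R). For MI/RI, occlusion of the left anterior descending artery lasted 30 min and reperfusion 6 h before the heart was taken, and the labels write the same times for sham. Strain, age and the part of the heart are not given in the sources used here. Samples are numbered 1 to 3 in each group, and nothing says which rats they came from, so p-values measure the spread between these samples.

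In glycolysis, aldolase splits a sugar bisphosphate into triose phosphates. Glyceraldehyde-3-phosphate dehydrogenase (Gapdh), phosphoglycerate kinase, phosphoglycerate mutase, enolase and pyruvate kinase then carry these to pyruvate and yield ATP. Lactate dehydrogenase interconverts pyruvate and lactate, which keeps glycolysis supplied with NAD+ when oxygen is short. Most of these steps have isozymes. Eno3 and Pgam2 encode the muscle forms of enolase and mutase, Ldhb encodes the heart type subunit of lactate dehydrogenase, and Eno1, Ldha and Pgam1 encode forms found in many tissues.

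The values were FPKM, which are scaled to gene length and library size, so levels could be compared between genes. They summed to between 731063 and 928941 per sample. The number of fragments is unknown, but values of low genes moved in whole steps (within 0.05 of a step in 94.4% of 2536 genes with a mean under 0.05 FPKM). Relative to sham 1, these steps put the depth at 1.18 and 1.14 in sham 2 and 3. It was 0.873, 0.935 and 0.881 in MI/RI 1 to 3. Every MI/RI sample was thus shallower than every sham sample. Mitochondrial DNA encodes 13 mRNAs, which held 83.8% ± 3.26 of the summed FPKM in sham and 68.1% ± 5.43 in MI/RI (SD, n = 3 each). The other genes thus held a larger part in MI/RI. As FPKM are relative, less mitochondrial mRNA and more of the other mRNAs cannot be told apart. Sham 1 stood apart from the other sham samples in the cardiomyocyte markers, which summed to 11364 FPKM in sham 1, the highest of the sham samples, against 3465 in the lowest. In bulk tissue, fewer cells of a type and less RNA per cell cannot be told apart.

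The 9 genes together summed to 1690, 658 and 588 FPKM in sham 1 to 3 and to 5825, 3358 and 3474 FPKM in MI/RI 1 to 3. The groups did not overlap. Of the FPKM outside the mitochondrially encoded mRNAs, the 9 genes held 0.631% ± 0.269 in sham and 1.65% ± 0.376 in MI/RI (SD, n = 3 each).

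Of the 9 genes, 8 rose and 0 fell in MI/RI (limma on log2(FPKM + 0.1), adjusted p under 0.05 over 10942 genes with a mean of at least 0.5 FPKM). Among all 10942 genes tested, 25.5% rose and 7.36% fell. Among the 3784 genes with a mean of at least 5 FPKM, tested by themselves, 50.0% rose, and all 7 of the genes described here at such levels were among them. The same 8 genes were higher in every MI/RI sample than in every sham sample, as were 37.2% of all genes tested. Their log2 fold changes ran from 1.63 for Pkm to 2.49 for Aldoa. Aldoa, with a mean of 0.409 FPKM in sham, passed the filter of 0.5 FPKM only through MI/RI. It is therefore best read apart from the other 7, whose largest log2 fold change was 2.40 (Ldhb). With Aldoc included, the median over the 9 genes was 2.15, beside 0.29 over all genes tested. Over the 3784 genes with a mean of at least 5 FPKM, the median was 0.66. A log2 fold change here is a difference of mean log2(FPKM + 0.1), which understates the change of low genes.

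**Figure D1:**
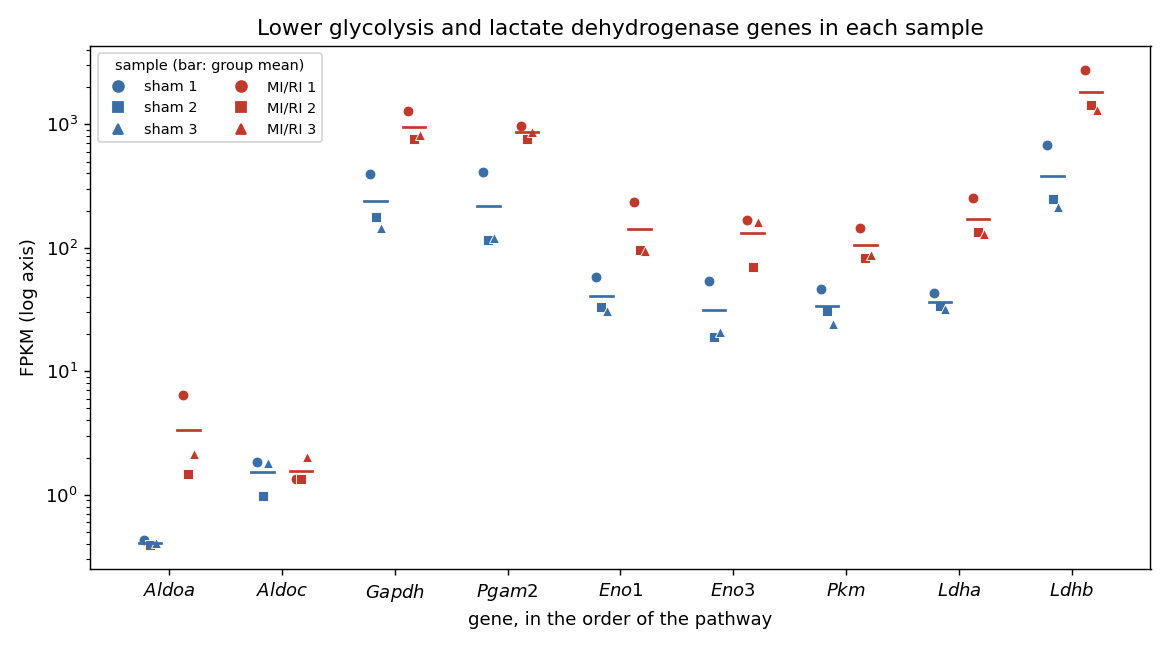
FPKM (log axis) of the 9 genes in each of the 3 sham (blue) and 3 MI/RI (red) samples, in pathway order; bars are group means. All MI/RI points lie above all sham points except for Aldoc, and the circle of sham 1 is the highest sham point for each gene.

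The levels of the genes spanned a wide range. In sham, Ldhb was the highest, at 379 ± 259 FPKM, followed by Gapdh at 239 ± 135 and Pgam2 at 217 ± 170 (SD, n = 3 each). Ldhb lay above Gapdh in 3 of the 3 sham samples although their ranges overlapped, and Gapdh above Pgam2 in 2. Eno1, Ldha, Pkm and Eno3 formed the next group, between 31.3 and 40.7 FPKM, and neighbours among them did not differ beyond their spread. Aldoc and Aldoa were the lowest, and no range overlapped that of the gene next above. In MI/RI, Ldhb again led at 1840 ± 808 FPKM, and its range no longer overlapped that of Gapdh (956 ± 279 FPKM). Gapdh and Pgam2 still overlapped, as did each neighbouring pair among Ldha, Eno1, Eno3 and Pkm.

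Aldolase was represented by Aldoa (ENSRNOG00000052802), the main form of muscle, and Aldoc (ENSRNOG00000011452), known best from brain. Aldoa was listed at 0.432, 0.390 and 0.406 FPKM in sham 1 to 3 and at 6.48, 1.48 and 2.16 FPKM in MI/RI 1 to 3. It rose by a log2 fold change of 2.49 ± 0.46 (SE; limma, adjusted p = 0.0053), and without MI/RI 1 the value was 1.89. The row lay far under those of its neighbours in the pathway, and 64.5% of the genes tested had a higher mean. Whether the row holds all reads of the gene was not tested, and the genome build and annotation behind the rows are not given in the sources used here. There were 37 rows without a symbol at a mean of at least 30 FPKM, and none was matched to a gene. Its values are therefore those of the row, and not a measure of aldolase A mRNA in the heart. Aldoc was 1.84, 0.974 and 1.80 FPKM in sham 1 to 3 and 1.33, 1.35 and 2.02 FPKM in MI/RI 1 to 3. The groups overlapped, and its log2 fold change of 0.05 did not pass the test (95% interval −0.63 to 0.73, adjusted p = 0.91, limma).

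Gapdh (ENSRNOG00000018630), which oxidises glyceraldehyde 3-phosphate and is often used as a reference gene, was 393, 177 and 145 FPKM in sham 1 to 3 and 1277, 765 and 827 FPKM in MI/RI 1 to 3. The lowest MI/RI sample was 1.95 times the highest sham sample. The log2 fold change was 2.10 ± 0.39 (SE; limma, adjusted p = 0.0052). Many processed copies of Gapdh exist in rodent genomes, and how fragments shared with them were counted is not stated. What such copies add to or take from the Gapdh row was not tested.

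Pgam2 (ENSRNOG00000013532), the muscle mutase that moves the phosphate of 3-phosphoglycerate, was 413, 116 and 120 FPKM in sham 1 to 3 and 975, 763 and 863 FPKM in MI/RI 1 to 3. The sham samples were far apart and the MI/RI samples close together. The log2 fold change was 2.27 ± 0.45 (SE; limma, adjusted p = 0.0066), and 2.87 without sham 1.

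The enolases, which form phosphoenolpyruvate, both rose. Eno1 (ENSRNOG00000017895) was 57.9, 33.4 and 30.8 FPKM in sham 1 to 3 and 233, 95.7 and 93.4 FPKM in MI/RI 1 to 3. MI/RI 1 was well above the other MI/RI samples. Its log2 fold change was 1.71 ± 0.39 (SE; limma, adjusted p = 0.011), and without sham 2 the call was lost (1.60, adjusted p = 0.055, limma). Eno3 (ENSRNOG00000004078) was 54.3, 18.9 and 20.7 FPKM in sham 1 to 3 and 167, 70.1 and 162 FPKM in MI/RI 1 to 3. Here MI/RI 2 was the low sample, and it lay only 1.29 times above sham 1. The log2 fold change was 2.15 ± 0.46 (SE; limma, adjusted p = 0.0081).

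Pkm (ENSRNOG00000011329), the pyruvate kinase gene whose M1 and M2 transcripts this table does not separate, was 46.8, 30.7 and 24.1 FPKM in sham 1 to 3 and 145, 82.2 and 87.6 FPKM in MI/RI 1 to 3. It had the smallest change of the 8 genes that rose, with a log2 fold change of 1.63 ± 0.32 (SE; limma, adjusted p = 0.0062), and 6.85% of all genes tested had a larger one.

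Both lactate dehydrogenase genes rose. Ldha (ENSRNOG00000013009) was 43.3, 33.6 and 31.9 FPKM in sham 1 to 3 and 251, 135 and 130 FPKM in MI/RI 1 to 3. The lowest MI/RI sample was 3.01 times the highest sham sample, and the sham samples lay close together. Its log2 fold change was 2.19 ± 0.30 (SE; limma, adjusted p = 0.0026). Ldhb (ENSRNOG00000013000) was 678, 246 and 213 FPKM in sham 1 to 3 and 2770, 1443 and 1307 FPKM in MI/RI 1 to 3. It was the most abundant of the 9 genes in every sample, and replicate 1 was the highest in both groups. The log2 fold change was 2.40 ± 0.46 (SE; limma, adjusted p = 0.0058), and 1.61% of all genes tested had a larger one.

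Replicate 1 was the highest sample of its group, in sham and in MI/RI alike, for each of the 7 genes other than the aldolases. Sham 1 was 1.32 times (Ldha) to 3.50 times (Pgam2) the mean of sham 2 and 3. MI/RI 1 was 1.20 to 2.47 times the mean of MI/RI 2 and 3. These genes thus shared their highest sample, and they are not to be read as independent of each other. The rest of the spread differed between genes, as with Eno3, at 167 FPKM in MI/RI 1 and 162 FPKM in MI/RI 3.

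Pairs of isozymes were compared as shares of their summed FPKM within a sample, which do not move with the scaling of a library. Ldha made up 6.00%, 12.0% and 13.0% of Ldha plus Ldhb in sham 1 to 3 and 8.32%, 8.58% and 9.06% in MI/RI 1 to 3. The groups overlapped, with the MI/RI samples within the range of sham. The mean was 10.3% ± 3.78 in sham and 8.65% ± 0.378 in MI/RI (SD, n = 3 each; two-sided exact permutation test, p = 0.4, adjusted p = 0.5 over 4 pairs). Without sham 1, the difference of −1.68 percentage points became −3.85, with the groups no longer overlapping, and it was −0.846 without sham 2 and −0.356 without sham 3.

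Eno1 made up 51.6%, 63.9% and 59.7% of Eno1 plus Eno3 in sham 1 to 3 and 58.3%, 57.7% and 36.6% in MI/RI 1 to 3. Only MI/RI 3 lay outside the range of sham. The difference of −7.54 percentage points was within the spread (two-sided exact permutation test, p = 0.5, adjusted p = 0.5), and it was −0.385 without MI/RI 3 and −4.80 without sham 2. Pgam1, which is outside the list, made up 10.1% ± 4.89 of Pgam1 plus Pgam2 in sham and 5.16% ± 1.33 in MI/RI (SD, n = 3 each), with overlapping groups (two-sided exact permutation test, p = 0.3, adjusted p = 0.5). Sham 1, at 4.66%, was the sample that overlapped, and the difference of −4.97 percentage points became −7.70 without sham 1 and −2.98 without sham 2.

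Aldoc made up 81.0%, 71.4% and 81.6% of Aldoa plus Aldoc in sham 1 to 3 and 17.1%, 47.8% and 48.4% in MI/RI 1 to 3. These groups did not overlap (exact permutation test, two-sided, p = 0.1, which is the lowest possible for 3 against 3; adjusted p = 0.4 over 4 pairs). This share rests on the low Aldoa row.

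**Figure D2:**
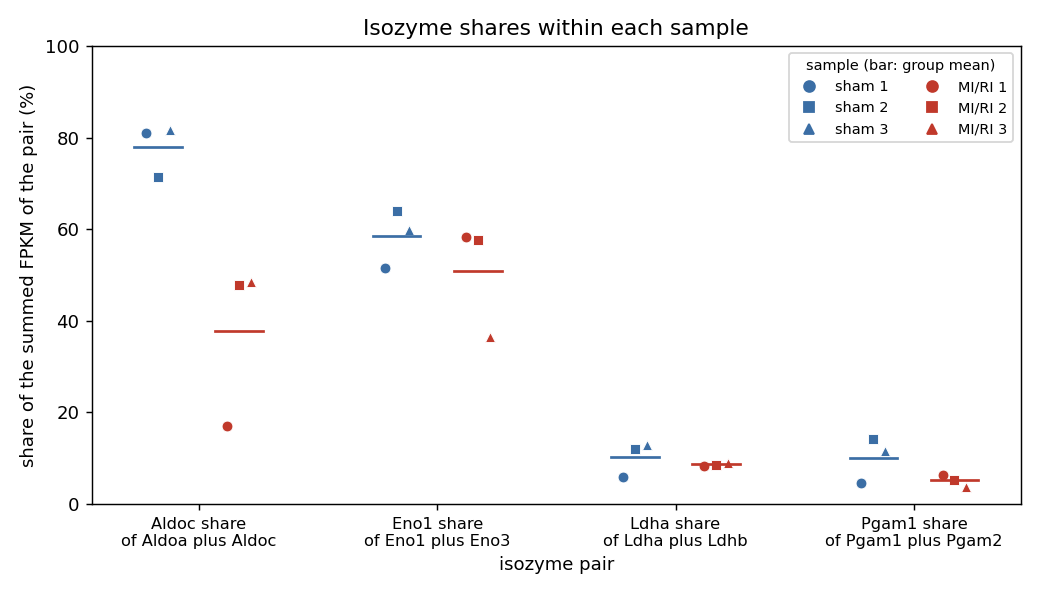
Share (%) of the first named isozyme in the summed FPKM of its pair, in each sham (blue) and MI/RI (red) sample; bars are group means. The groups are apart for the aldolase pair and overlap for the enolase, lactate dehydrogenase and mutase pairs.

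Other genes of the pathway came from a list of 24, of which 23 were found and 16 passed the filter on low values. Of these 16, 10 rose and 1 fell, with a median log2 fold change of 1.39. Among all genes tested, 25.5% rose and 7.36% fell, with a median of 0.29. Among the genes with a mean of at least 5 FPKM, 50.0% rose. After quantile normalization 5 of the 16 rose, and after centring on the cardiomyocyte markers 0 rose and 8 fell. Tpi1, the triose phosphate isomerase that stands between aldolase and Gapdh, was 95.9, 50.6 and 51.3 FPKM in sham 1 to 3 and 338, 178 and 172 FPKM in MI/RI 1 to 3 (log2 fold change 1.79 ± 0.35, SE; limma, adjusted p = 0.0063). Replicate 1 was again the highest in both groups, and the call was lost after quantile normalization (0.78, adjusted p = 0.065, limma). Pgam1 rose by 1.32 (adjusted p = 0.0086, limma), from 18.4 ± 2.32 to 47.8 ± 17.3 FPKM (SD, n = 3 each). Its call was lost with the mitochondrially encoded mRNAs left out of the library total (0.54, adjusted p = 0.12, limma) and after quantile normalization (0.44, adjusted p = 0.14, limma), and it was called lower after centring on the cardiomyocyte markers (−0.97, adjusted p = 0.049, limma). Eno2, the neuronal enolase, had a log2 fold change of 0.01 (adjusted p = 0.99, limma) at 1.42 FPKM in both groups.

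The largest log2 fold changes of the 24 genes were those of Hk2, the insulin-responsive hexokinase (2.58, adjusted p = 0.0027, limma), and of Pfkm, the muscle phosphofructokinase (2.49, adjusted p = 0.0033, limma). Hk2 was 0.191 ± 0.099 FPKM in sham and 1.58 ± 0.182 FPKM in MI/RI (SD, n = 3 each). Like Aldoa, it passed the filter of 0.5 FPKM only through MI/RI. Pfkfb2, a heart form of the enzyme that makes the phosphofructokinase activator fructose 2,6-bisphosphate, had the smallest and was the gene that fell, from 2.83 ± 0.539 to 0.736 ± 0.286 FPKM (SD, n = 3 each; log2 fold change −1.86, adjusted p = 0.0039, limma). Pfkfb4, with the next smallest value (−0.11, adjusted p = 0.83, limma), was not called. Among the isozymes, Gapdhs, Pgk2 and Ldhc, known from sperm or testis, as well as Pklr and Eno4, did not pass the filter.

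**Figure D3:**
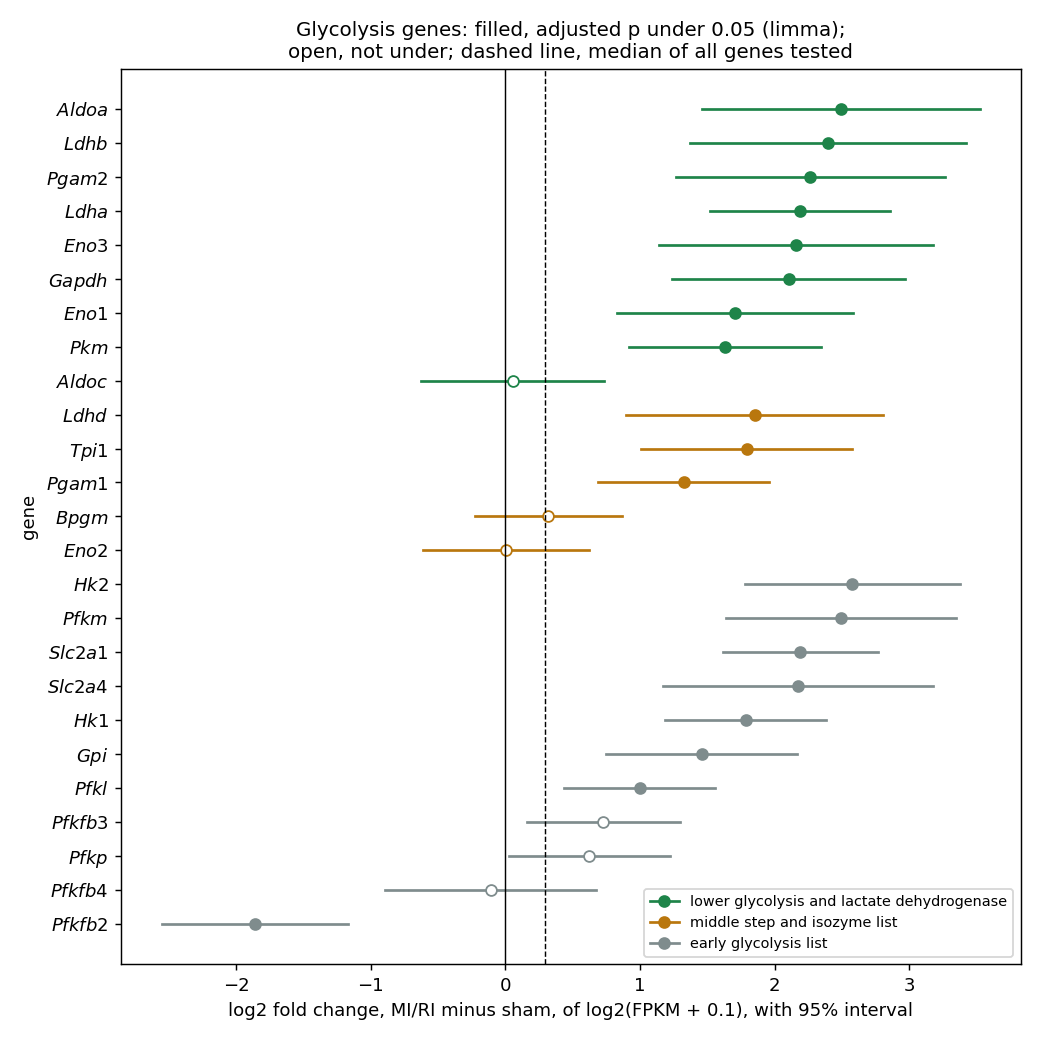
Log2 fold change (MI/RI minus sham, of log2(FPKM + 0.1)) with its 95% interval for the 9 genes (green) and the 16 tested genes of the other 2 lists (orange, middle step and isozymes; grey, early glycolysis). Filled points passed the test, and among the green points only Aldoc, at 0.05, is open.

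Of 7 cardiomyocyte markers found, 6 rose, with a median log2 fold change of 2.28, and their summed level was 3465 to 11364 FPKM in sham and 23353 to 33681 FPKM in MI/RI. The markers (Myh6, Myl2, Myl3, Tnnt2, Tnni3, Actc1 and Ryr2) were present in every sample, as the tissue label calls for. Relative to the mean log2 level of these markers in the same sample, Ldhb was −0.07 ± 0.13 in sham and 0.03 ± 0.24 in MI/RI (SD, n = 3 each). On the same scale Gapdh was −0.68 ± 0.08 and −0.87 ± 0.09, and Pkm was −3.40 ± 0.36 and −4.07 ± 0.12. The differences between the groups on this scale ran from −0.66 (Pkm) to 0.19 (Aldoa) for the 8 genes that rose. Apart from the low Aldoa row, the highest was 0.10 (Ldhb). Aldoc, at −2.24, was called lower. More cardiomyocyte RNA among the total and a rise within cardiomyocytes cannot be told apart.

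Neutrophil and monocyte markers rose in 4 of the 7 tested, beside 25.5% of all genes tested. Of these 4, Mmp8 (mean 0.176 FPKM in sham and 1.65 FPKM in MI/RI) passed the filter only through MI/RI. The summed level of the 8 markers found was 52.5 to 67.8 FPKM in sham and 79.9 to 146 FPKM in MI/RI. Their part in the result was not tested. Red blood cell markers rose in 0 of 4, with a summed level of 1209 to 1346 FPKM in sham and 641 to 1860 FPKM in MI/RI, and endothelial markers rose in 0 of 5 (99.4 to 142 and 114 to 149 FPKM). Of 6 fibroblast markers 1 rose (416 to 574 and 590 to 653 FPKM). The 6 skeletal muscle markers summed to 1.83 to 4.11 FPKM in sham and 0.607 to 2.33 FPKM in MI/RI, with Myh4 listed at 0 in all samples.

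Under each scaling below, the log2 fold changes of the 8 genes lay above the median of all genes tested. Aldoa, 1 of the 8, passed the filter only through MI/RI and is best read apart here too. With the mitochondrially encoded mRNAs left out of the library total, all 8 were again called higher, the median of the 9 was 1.37 and that of all genes was −0.46. After centring each sample on its median gene, all 8 were called, with medians of 1.91 and 0.04. After quantile normalization, 5 were called, with Aldoa among them. Eno1, Eno3 and Pkm, at 0.79, 1.21 and 0.67, no longer passed (adjusted p = 0.11, 0.061 and 0.054, limma). After centring on the cardiomyocyte markers, 0 of the 9 were called higher, with medians of −0.14 and −2.01.

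**Figure D4:**
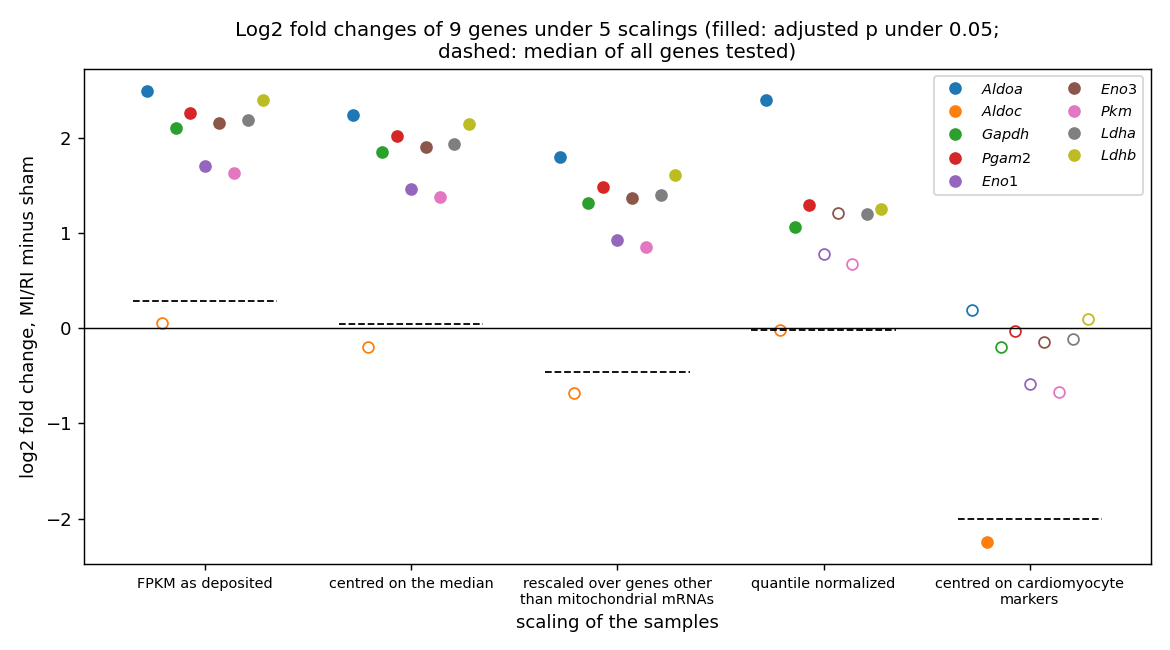
Log2 fold changes (MI/RI minus sham) of the 9 genes under 5 scalings of the samples; filled points have an adjusted p under 0.05 and dashed lines are the medians of all genes tested. Except for Aldoc, the points lie above the dashed lines under each scaling, and they lie around 0 after centring on the cardiomyocyte markers.

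The genes whose pattern over the 6 samples was most like the mean log2 level of the 9 were Mrpl2, Mrps34, Ca14, Tomm40 and Prkaca, each with a Pearson r of at least 0.998. The points share library and group. Of 3777 other genes with a mean of at least 5 FPKM, 37.8% had an r of at least 0.9.

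Several enzymes of glycolysis are known targets of the hypoxia-inducible factors, whose known sites include the core letters ACGTG. Only these letters were searched, and other forms of the core were not. The stretch from 250 bases before to 50 after the start of each gene was searched for ACGTG on both strands in RefSeq promoters of the rat build GRCr8, which may not be the build of the files. Of the 10 genes, 9 matched, with 12 promoters, and 5 genes held a match, beside 20.9% of all 27457 genes. The stretches around the matches are shown so that the letters found can be read, whether or not the gene rose, with the motif on either strand in capitals and positions counted from the start site.
Ldha, chr1:106507999-106508028, plus strand, motifs from −87 to −69: agcctaCACGTGggttcccgCACGTccgct
Gapdh, chr4:159652572-159652601, minus strand, motif at −121: ggctttacgggtgCACGTagctcaggcctc
Eno1, chr5:166003381-166003410, plus strand, motif at 38: ccggtaccgagtcgcgctCACGTttgtcct
Aldoc, chr10:63715500-63715529, plus strand, motif at −31: gcccccagggagtCACGTagctctgcggca
Aldoa, chr1:190836953-190836982, minus strand, motif at −192: atgtggctcgagtCACGTcctagcggggcg

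Ldha held 3 matches, of which 2 are the strands of the palindrome CACGTG, also known as an E-box. Of the promoters of Aldoa and Eno1, 1 each held a match. No match was found in these windows for Pgam2, Eno3, Pkm and Ldhb. Such a match is not a binding site by itself, and sites outside these windows were not searched. Whether hypoxia-inducible factors had a part in any change was not tested.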

How the data were processed

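Total RNA from 6 myocardial samples had been sequenced with a stranded kit, and the deposited table gives FPKM, which the authors had divided by gene length and library size. The submitters' processing notes name STAR and HTSeq. Their versions, the build and the annotation are not given in the sources used here. Columns were matched to samples by name, rows that shared a symbol were summed, and 7092 rows without a symbol kept their identifier.

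Log2(FPKM + 0.1) was compared with limma 3.58.1 in R 4.3.3 (intensity trend, two-sided, Benjamini-Hochberg over 10942 genes with a mean of at least 0.5 FPKM, threshold 0.05), and shares with exact permutation tests in scipy 1.17.1. The scripts were checked on simulated data. The genes, lists, named genes and alternatives were chosen with earlier results of these data known. From the other glycolysis genes, the text names Tpi1, Pgam1, Eno2 and the 2 largest and 2 smallest changes. Likeness was taken over genes with a mean of at least 5 FPKM.

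The reported fit has no replicate block, as the methods pair no samples. Deviations of same-numbered samples correlated at 0.203, 0.117 and 0.118, which was not tested. Sham 3 correlated as well with MI/RI 2 (0.120). Whether samples of the same number belong together is not known, so a fit with a replicate block is given below as an alternative.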

Additional observations from a re-analysis of the deposited data

How the results depend on the processing

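With a replicate block, 8 of the 9 genes were again called higher and 0 lower, with 3085 genes higher and 895 lower over all, and no call of a gene named here among the 9 changed. Over all genes, 2790 rose and 805 fell as reported (77.6% of the calls higher). Quantile normalization gave 1441 and 1559 (48.0%), leaving the mitochondrially encoded mRNAs out of the library total 793 and 2857 (21.7%), and centring on the cardiomyocyte markers 35 and 8977 (0.388%). Only the count lower moved by over 1.5 times with a mean of at least 5 FPKM (166), after rescaling to TPM (504; 87.3%) and after centring on the median (1554; 56.5%). With each sample left out in turn, 1528 to 2557 genes rose and 309 to 881 fell, the count being lowest for the higher calls without sham 3 (1528, with 359 lower) and for the lower calls without sham 2.

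The 8 calls of the described genes became 5 after quantile normalization and 0 after centring on the cardiomyocyte markers, where 1 was lower, and were 7 to 8 with a sample left out. That centring takes the same amount from every gene of a sample. It turned the log2 fold changes of Gapdh (−0.19), Pgam2 (−0.031), Eno1 (−0.59), Eno3 (−0.14), Pkm (−0.66), Ldha (−0.11), Tpi1 (−0.51) and Pgam1 (−0.97). Aldoc, not called as reported, turned after centring on the median (−0.20), quantile normalization (−0.021), the total without mitochondrial mRNAs (−0.68) and the marker centring (−2.24, the 1 call), and lay between −0.23 and 0.20 with a sample left out. The 4 isozyme differences kept their sign under each alternative run. Of the rows named as copies, none matched for these pairs, so adding them was not run. With 3 samples a group, no share could pass the threshold. Depth limits Aldoa and Aldoc most, the lowest of the 9 genes.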
